A study of Mus musculus with 58 samples.

Results

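The integrated stress response was followed through 10 of its genes in mouse prefrontal cortex: Eif2ak3, Atf4, Atf5, Ddit3, Ppp1r15a, Trib3, Sesn2, Chac1, Asns and Psat1. The genes were taken by name from the 18088 genes of the deposited table, and all 10 were found. No cutoff on a measured value set the choice, but earlier results of these data were known when it was made. Of these, 9 reached the mean normalised count of at least 10 that was asked of a gene before testing, and Trib3 did not. RNA of prefrontal cortex from C57BL/6J mice of both sexes had been sequenced in bulk at postnatal day 25, straight after a 3-week exposure between days 3 and 24, in which pups took up vehicle, fluoxetine or lithium with the milk of the dam. Fluoxetine is a serotonin reuptake inhibitor and lithium a mood stabiliser. The 58 libraries formed 6 groups by genotype and treatment, with as many females as males in each. WT lithium had 8 libraries and each other group had 10. WT stands for wild-type and HT for heterozygous for Kmt5b, which encodes an enzyme that methylates a lysine of histone H4. The form of the Kmt5b allele, the litters and the doses are not given in the sources used here. Milk brings a drug to a whole litter and the labels do not say which libraries come from littermates, so the p-values measure the spread between these libraries only.

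The integrated stress response is a shared answer of cells to amino acid shortage, unfolded protein, viral RNA and haem shortage. Each stress switches on a kinase that phosphorylates the translation initiation factor eIF2, which slows protein synthesis in general while a few messages, that of the transcription factor ATF4 among them, are translated more. ATF4 protein then raises genes of amino acid supply, redox balance and feedback. Its protein level is set largely by upstream open reading frames in its message, which RNA counts do not measure, so the counts below show the RNA of the pathway and not its activity. In the brain the response is known for its part in memory formation and in white matter disease.

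ATF4 binds its targets, mostly with a C/EBP partner, at an element with the core TGATGNAA, called CARE here, in which N is any base. RefSeq start windows of GRCm38.p6, each running from 250 bases before to 50 bases after a transcription start, were searched on both strands for this core. All 10 genes had a window. The core stood in the windows of 3 of the 10 genes, Asns, Chac1 and Trib3, and in those of 4.51% of all 27025 genes with a window. These stretches of 30 bases show the matches, with the core in capitals and each read 5′ to 3′ on the strand that carries it. That is the minus strand for Asns (chr6:7693214-7693243) and Chac1 (chr2:119351038-119351067) and the plus strand for Trib3 (chr2:152344028-152344057).

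Asns: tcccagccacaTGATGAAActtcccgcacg

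Chac1: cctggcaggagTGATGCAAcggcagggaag

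Trib3: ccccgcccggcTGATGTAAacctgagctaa

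Counted from the RefSeq start, the core lay at -23 to -16 in Asns, at -193 to -186 in Chac1 and, downstream of the start, at 15 to 22 in Trib3. The cyclic AMP response element TGACGTCA, which reads the same on both strands and does not contain the CARE core, stood in the window of 1 of the 10 genes, Ppp1r15a, at -12 to -5, and in those of 2.03% of all genes. The stretch chr7:45526262-45526291, read on the minus strand with the element in capitals, holds it.

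Ppp1r15a: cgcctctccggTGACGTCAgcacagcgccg

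The windows of Atf4, Ddit3 and Sesn2, the genes that rose with lithium in WT below, held neither of these elements. They are shown from -120 to -61 with CCAAT, the box bound by NF-Y, in capitals, read on the gene's strand, so that the complement ATTGG marks a box on the other strand. The stretches are chr15:80255064-80255123 on the plus strand for Atf4, chr10:127290673-127290732 on the plus strand for Ddit3 and chr4:132510517-132510576 on the minus strand for Sesn2.

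Atf4: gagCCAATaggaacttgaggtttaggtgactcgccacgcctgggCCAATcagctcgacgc

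Ddit3: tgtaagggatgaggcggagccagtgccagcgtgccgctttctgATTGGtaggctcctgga

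Sesn2: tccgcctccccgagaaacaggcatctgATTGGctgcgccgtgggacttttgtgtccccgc

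CCAAT on either strand is common: 7 of the 10 genes and 41.1% of all genes had it. Sites outside these windows were not searched, so a gene without a match here may carry the element elsewhere. A match is a description of these letters, and binding was not measured here.

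Reads worked out from the table ran from 23.5 M to 38.6 M per library, with a median of 27.6 M over all 58. These include 4 libraries whose reads were not counted as recovered and which stayed out of count tests. Kmt5b stood at 1409 to 1956 normalised counts (median 1667) in the 28 libraries labelled WT and at 1573 to 2008 (median 1738) in the 30 labelled HT, so it was not lower in HT. The table has 1 value per gene and does not separate the transcripts of 2 alleles, so WT and HT stand for the labels throughout, and the direction of every genotype difference rests on them. The 10 excitatory neuron markers summed to 111000 to 183000 normalised counts over all groups, with none of them at 0 in any library. Libraries differed in RNA of the neighbouring olfactory bulb: in 10 of them the mean log2(normalised count + 1) of 9 olfactory bulb markers was 3.93 to 4.75, and in the other 48 it was 6.26 to 9.49. The 10 comprised 3 WT vehicle, 1 WT fluoxetine, 3 HT fluoxetine and 3 HT lithium libraries, and neither HT vehicle nor WT lithium had any, so results are given with all libraries and, where a call changes, without these 10. Libraries also differed in the slope of their log2 values on exon length, a measure that can follow RNA quality, which the labels do not give. Its median was -0.0333 in WT vehicle and -0.0104 in HT vehicle. With drug it was 0.0212 in WT fluoxetine, 0.0148 in WT lithium, 0.00176 in HT fluoxetine and 0.0106 in HT lithium. Both vehicle medians lay below those of all drug groups, so slope and drug cannot be fully told apart. In bulk tissue, fewer cells of a type and less RNA per cell cannot be told apart.

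**Figure D1:**
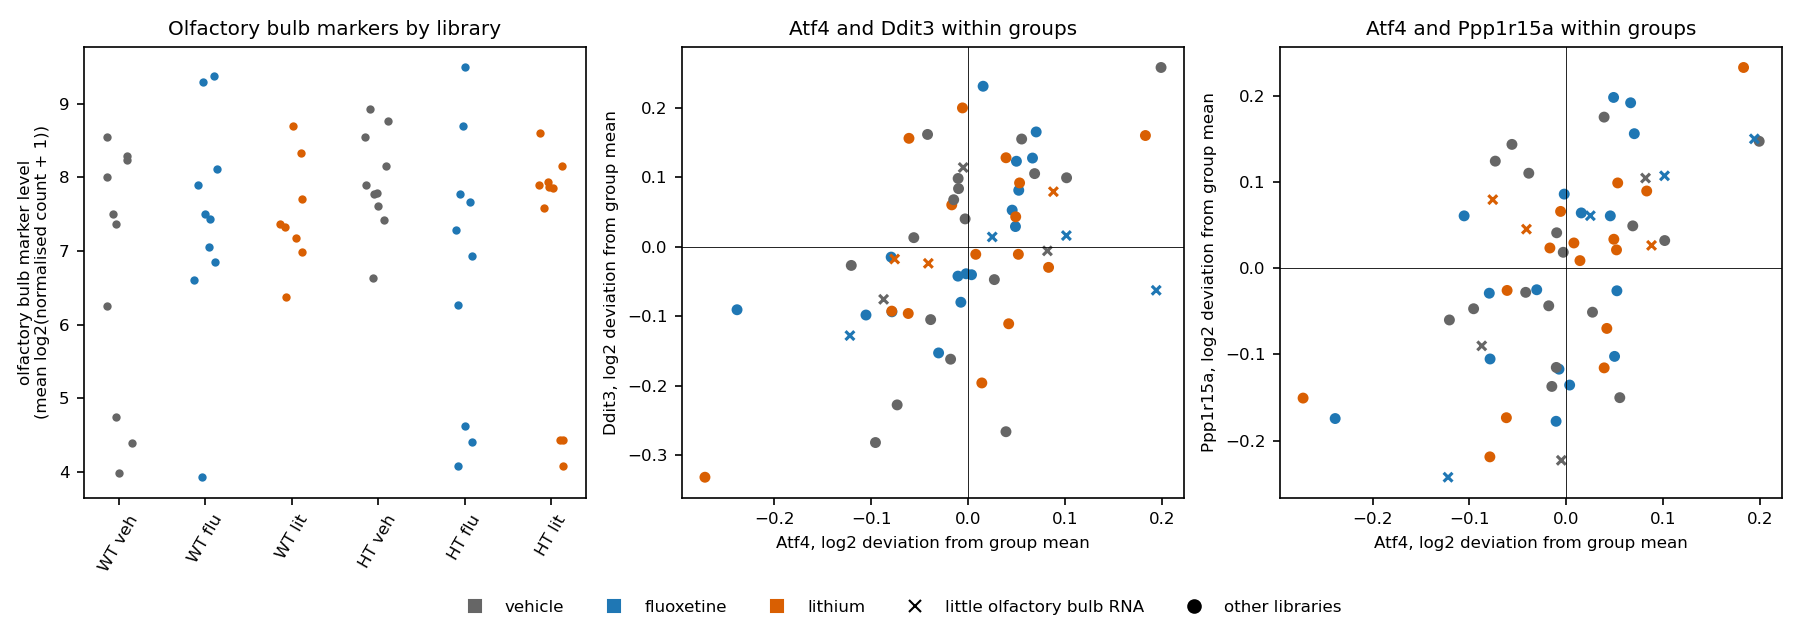
Left, olfactory bulb marker level (mean of log2(normalised count + 1) over 9 markers) of each of the 58 libraries by genotype and treatment (veh, vehicle; flu, fluoxetine; lit, lithium); 10 libraries lie at or below 4.75 and the others at or above 6.26. Middle and right, log2 deviation of each library from the mean of its genotype, treatment and sex group for Atf4 (x axis) against Ddit3 (r = 0.53) and Ppp1r15a (r = 0.54), with crosses for the 10 libraries and circles for the other 48.

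Per kilobase of exon the genes differed widely in level. Atf4 was the most abundant at 1360 normalised counts per kilobase, averaged over the 58 libraries. The biosynthetic enzymes Asns (794 per kilobase) and Psat1 (610) came next. Ddit3 stood at 207, Atf5 at 180, Ppp1r15a at 151, Eif2ak3 at 135, Sesn2 at 110 and Chac1 at 96 per kilobase. Trib3 was close to silent at 3.9 per kilobase. Apart from Trib3, the highest library exceeded the lowest by 1.31 times for Eif2ak3 up to 1.91 times for Atf5, so the whole study, drugs and genotypes included, moved each of these 9 genes less than 2-fold. Within a group of genotype, treatment and sex, Eif2ak3 and Psat1 varied least, at the 6th and 18th percentile of the spread of all genes tested, and Chac1 and Atf5 most, at the 61st and 63rd percentile.

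**Figure D2:**
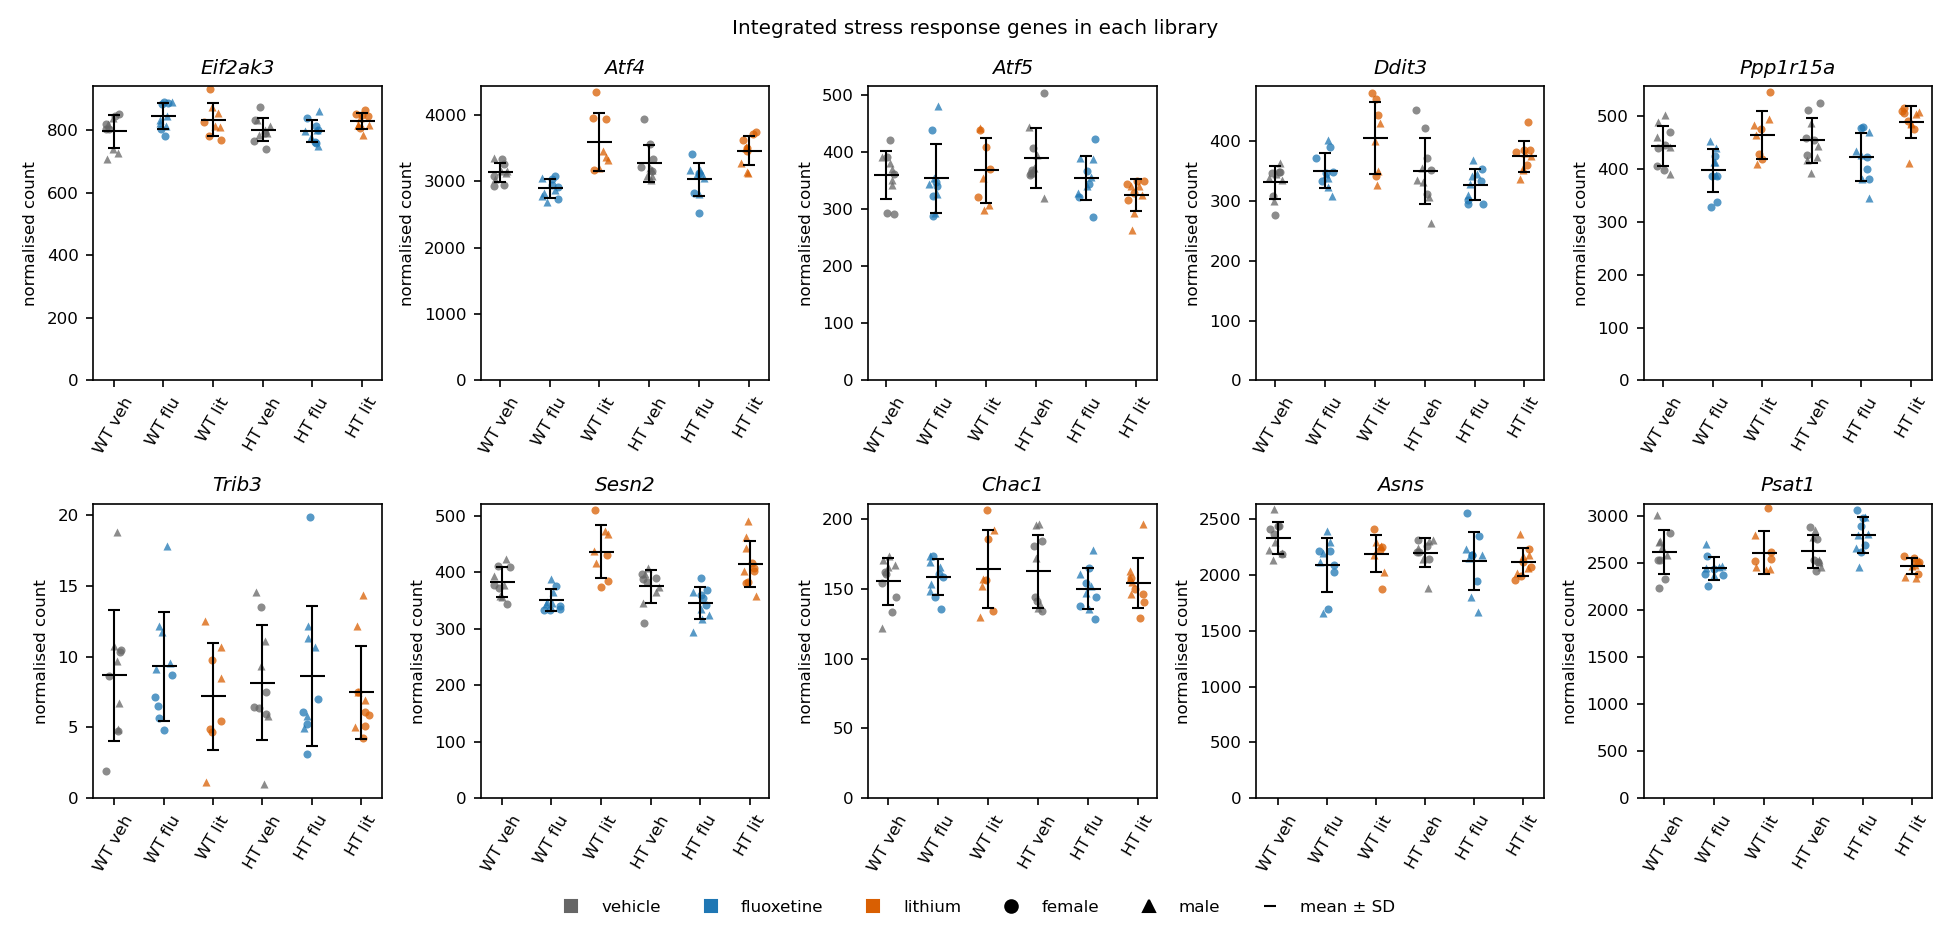
Normalised count (gene count divided by the size factor of the library, linear axis from 0) of the 10 genes in each of the 58 libraries by genotype and treatment, circles for females and triangles for males, with the mean ± SD of each group of 10 (8 for WT lithium). Atf4 in WT lithium (3168 to 4345) lies wholly above WT fluoxetine (2688 to 3078), whereas Trib3 stays at or below 19.8 in every library.

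With lithium against vehicle in WT, Atf4, Ddit3 and Sesn2 rose, 3 of the 9 genes tested, while 1.95% of all 16669 genes tested rose in that comparison. With lithium against vehicle in HT, Atf5 fell, 1 of 9, where 6.61% of all genes fell, and none of the 9 rose, where 7.46% of all genes did. None of the 9 passed with fluoxetine against vehicle in WT, where 7.39% of all genes changed, or in HT, where 12.8% did. Between the drugs, 3 of 9 were higher with lithium than with fluoxetine in WT (Atf4, Sesn2 and Ppp1r15a, against 2.55% of all genes). In HT 4 of 9 were higher (the same 3 and Ddit3, against 3.52% of all genes) and 1 was lower (Psat1, against 3.27%). Passing means an adjusted p under 0.05 by limma with Benjamini-Hochberg adjustment over all genes tested. The drug comparisons within a genotype share libraries with each other, so their counts are not independent.

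**Figure D3:**
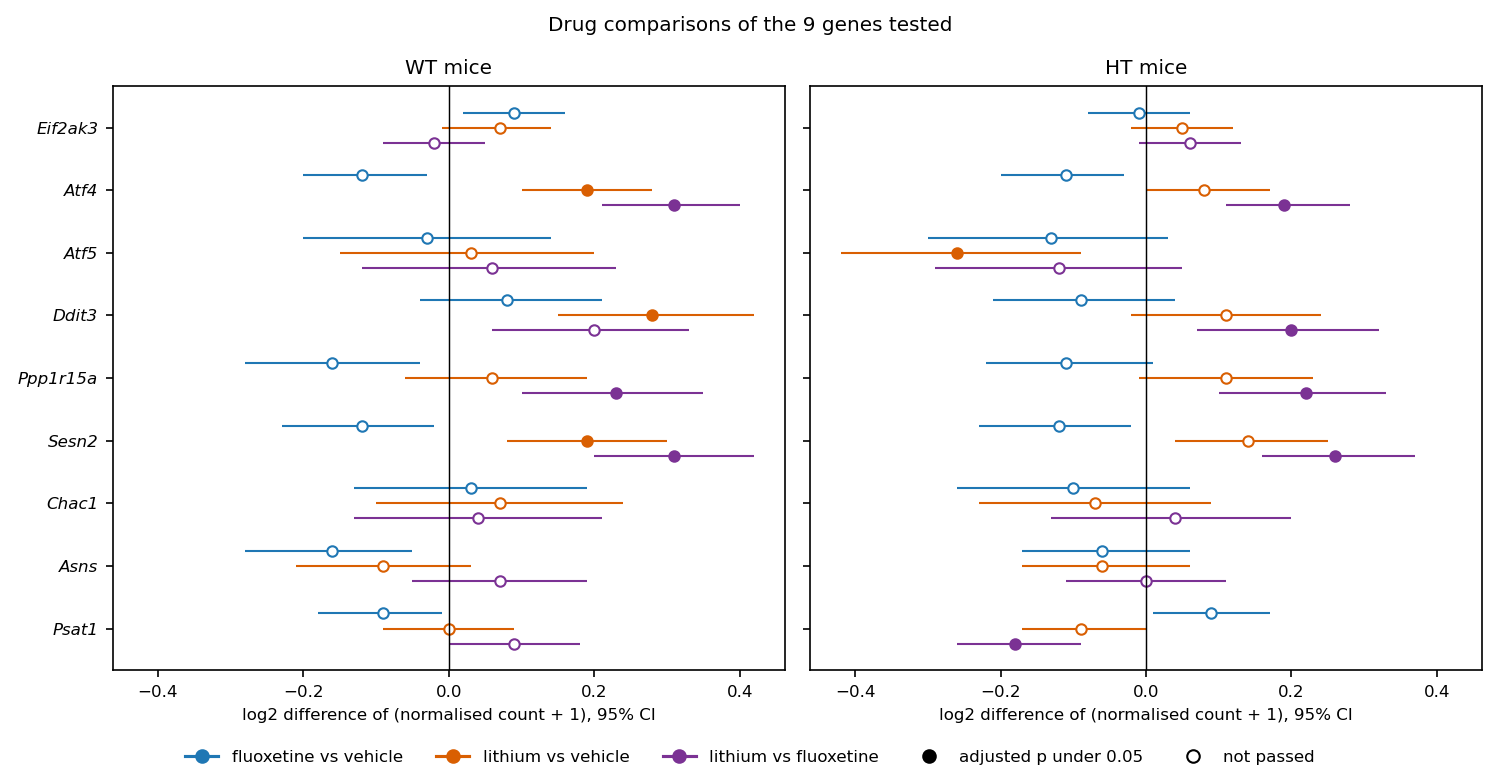
Difference in log2(normalised count + 1) with its 95% confidence interval for the 9 genes tested, in WT (left) and HT (right), for fluoxetine against vehicle (blue), lithium against vehicle (orange) and lithium against fluoxetine (purple); filled points passed at an adjusted p under 0.05. Atf4 and Sesn2 lie above 0 for lithium against fluoxetine in both genotypes (0.31 in WT for both, 0.19 and 0.26 in HT), and Atf5 lies at -0.26 for lithium against vehicle in HT.

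Eif2ak3 (ENSMUSG00000031668, chromosome 6, 70844515 to 70905245) encodes PERK, the eIF2 kinase of the endoplasmic reticulum. It passed in none of the drug comparisons. Its normalised count was 796 ± 52.0 in WT vehicle, 845 ± 40.6 in WT fluoxetine (SD, n = 10 each) and 833 ± 52.5 in WT lithium (SD, n = 8). In HT it was 802 ± 37.6 with vehicle, 796 ± 35.6 with fluoxetine and 829 ± 24.6 with lithium (SD, n = 10 each). The 6 group means differed by less than the SD of WT vehicle. The difference nearest to passing was fluoxetine against vehicle in WT, 0.09 on the log2 scale (95% confidence interval 0.02 to 0.16, limma adjusted p = 0.101).

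Atf4 (ENSMUSG00000042406, chromosome 15, 80255184 to 80257541, all positions on GRCm38) encodes the central transcription factor of the response. In WT its lowest, median and highest normalised counts were 2922, 3137 and 3346 with vehicle, 2688, 2894 and 3078 with fluoxetine, and 3168, 3412 and 4345 with lithium. Lithium libraries thus lay high, overlapping the upper part of the vehicle range and lying wholly above fluoxetine. It was the 1 gene of the 9 whose lithium and fluoxetine libraries did not overlap in WT, which 0.138% of all genes showed in this direction. Means in WT were 3136 ± 145 with vehicle, 2892 ± 136 with fluoxetine (SD, n = 10 each) and 3592 ± 431 with lithium (SD, n = 8). With lithium Atf4 rose by 0.19 on the log2 scale against vehicle (SE 0.0456, a fold of 1.14, limma adjusted p = 0.011), and it was higher than with fluoxetine by 0.31 (SE 0.0456, a fold of 1.24, adjusted p = 1.9e-05). The difference from vehicle was 0.30 in females and 0.08 in males. WT lithium female 4 held the highest value of its group in 7 of the 10 genes and the lowest in none, and without it the difference of Atf4 from vehicle was 0.16 (limma adjusted p = 0.0602). No other fit that left out 1 library ended the call, and the fit on only the WT vehicle and WT lithium libraries gave an adjusted p of 0.065.

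In HT the lowest, median and highest Atf4 counts were 3019, 3180 and 3937 with vehicle, 2526, 3102 and 3409 with fluoxetine, and 3131, 3505 and 3739 with lithium. All 3 ranges overlapped, and the single highest value belonged to HT vehicle female 1. Means were 3274 ± 280, 3029 ± 247 and 3460 ± 217 (SD, n = 10 each). Atf4 was higher with lithium than with fluoxetine by 0.19 (SE 0.043, limma adjusted p = 0.00273), and without the 10 libraries poor in olfactory bulb RNA by 0.20 (adjusted p = 0.0146). The difference of lithium from vehicle was 0.08 (95% confidence interval 0.00 to 0.17, adjusted p = 0.197). Adjusted for the exon length slope it was 0.15 (adjusted p = 0.00586), under which setting 5.02% of all genes rose. The difference of fluoxetine from vehicle was -0.12 in WT (adjusted p = 0.0813) and -0.11 in HT (adjusted p = 0.0753), and adjusted for the olfactory bulb level the HT value was -0.12 (adjusted p = 0.034), where 14% of all genes fell. Ordered by mean, Atf4 stood lowest in WT fluoxetine, then HT fluoxetine, WT vehicle, HT vehicle, HT lithium and WT lithium, each neighbour in that order differing by less than the larger of the SDs of the pair.

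Ddit3 (ENSMUSG00000025408, chromosome 10, 127290774 to 127296288) encodes CHOP, a transcription factor induced downstream of ATF4 and linked to cell death in lasting stress. In WT its lowest, median and highest counts were 277, 342 and 364 with vehicle, 308, 347 and 402 with fluoxetine, and 327, 415 and 481 with lithium. The lithium libraries spread from within the vehicle range to well above it, and the ranges overlapped. With lithium Ddit3 rose by 0.28 against vehicle in WT (SE 0.0674, a fold of 1.22, limma adjusted p = 0.00975), from a mean of 331 ± 27.2 (SD, n = 10) to 406 ± 60.2 (SD, n = 8). Females differed by 0.41 and males by 0.16. Leaving out each of the 18 libraries in turn kept the adjusted p at or below 0.043, and the fit on only the WT vehicle and WT lithium libraries gave 0.0711.

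In HT the lowest, median and highest Ddit3 counts were 263, 344 and 453 with vehicle, 295, 331 and 368 with fluoxetine, and 337, 378 and 433 with lithium. Vehicle spanned both other groups, and lithium and fluoxetine overlapped in part. Ddit3 was higher with lithium than with fluoxetine by 0.20 in HT, at the edge of the threshold (SE 0.0635, adjusted p = 0.0496). That call was lost in 16 of the 20 fits that each left out 1 library (adjusted p up to 0.0948), all but those without HT lithium female 2, HT lithium male 4, HT fluoxetine female 5 or HT fluoxetine male 1. It was 0.16 without the 10 libraries poor in olfactory bulb RNA (adjusted p = 0.302). It also missed the threshold in 7 further settings of 15 (adjusted p 0.0504 to 0.0806): the replicate block, no variance trend, no filter on low counts, the striatal marker covariate, and limma, edgeR and DESeq2 on 54 libraries. The same difference in WT was 0.20 (adjusted p = 0.0746), so the sizes matched while the sides of the threshold did not, and the difference between them was not tested.

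Atf5 (ENSMUSG00000038539, chromosome 7, 44812256 to 44816658) encodes a relative of ATF4 whose translation is also favoured when eIF2 is phosphorylated. It was the 1 gene of the 9 that fell against vehicle. In HT its lowest, median and highest counts were 320, 371 and 504 with vehicle and 264, 334 and 350 with lithium. No lithium library reached the vehicle median, but the ranges overlapped. The mean went from 390 ± 51.9 to 325 ± 27.6 (SD, n = 10 each). The log2 difference was -0.26 (SE 0.0834, a fold of 0.838, limma adjusted p = 0.0317), with -0.24 in females and -0.27 in males. In WT lithium and vehicle differed by 0.03 (95% confidence interval -0.15 to 0.20), with means of 368 ± 57.8 (SD, n = 8) and 360 ± 41.8 (SD, n = 10). The test of the genotype difference in the lithium response gave -0.28 (SE 0.122, adjusted p = 0.294), so a difference between HT and WT was not shown.

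The fall of Atf5 in HT was one of the calls that moved with the libraries used. Without the 10 libraries poor in olfactory bulb RNA, of which 3 were HT lithium and none HT vehicle, it was -0.28 (adjusted p = 0.0578), and adjusted for the exon length slope -0.17 (adjusted p = 0.186), within a range of 0.0132 to 0.186 over 15 other settings. By limma on 54 libraries it was -0.30 (adjusted p = 0.0526). It was also lost without HT lithium female 4, female 5, male 4 or male 5, or without HT vehicle female 1 or male 4 (adjusted p 0.0522 to 0.083). Of the endothelial and mural markers 5 of 10 fell in the same comparison, where 6.61% of all genes fell, while 4 of 10 lay above 0. Their summed level was 10100 to 11800 with lithium and 9970 to 13500 with vehicle, with none of them at 0. The part of these markers in the result was not tested. The 3 tested genes most like Atf5 over the 58 libraries were Apoe (r = 0.78), Slc9a3r1 (0.74) and Rhoc (0.74).

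Ppp1r15a (ENSMUSG00000040435, chromosome 7, 45522916 to 45526268) encodes GADD34, which brings a phosphatase to eIF2 and so ends the response. In WT its lowest, median and highest counts were 390, 443 and 502 with vehicle, 328, 401 and 454 with fluoxetine, and 409, 470 and 546 with lithium. In HT they were 392, 449 and 524 with vehicle, 346, 425 and 479 with fluoxetine, and 410, 497 and 515 with lithium. In both genotypes vehicle lay between the drugs, fluoxetine low and lithium high, and all ranges overlapped. Against vehicle neither drug passed: fluoxetine gave -0.16 in WT (adjusted p = 0.0746) and -0.11 in HT (adjusted p = 0.221), and lithium gave 0.06 in WT (adjusted p = 0.679) and 0.11 in HT (adjusted p = 0.195). Between the drugs Ppp1r15a was higher with lithium by 0.23 in WT (SE 0.0617, limma adjusted p = 0.0257) and by 0.22 in HT (SE 0.0581, adjusted p = 0.0138). The WT call was lost without WT fluoxetine female 1, female 2 or male 5, or without WT lithium female 3, female 4, male 3 or male 4 (adjusted p 0.0524 to 0.116) and in the fit on only the compared groups (adjusted p = 0.0899), and the HT call without the 10 libraries poor in olfactory bulb RNA (0.18, adjusted p = 0.127).

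The nearest neighbours of Ppp1r15a included genes of neuronal activity. Over the 58 libraries its log2 values followed those of Gadd45b (r = 0.71), Arc (0.70) and Arl4d (0.70), of which Gadd45b and Arc belong to the immediate early genes described below. Those correlations span all groups and therefore contain the drug differences themselves.

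Trib3 (ENSMUSG00000032715, chromosome 2, 152337422 to 152344032) encodes a pseudokinase that restrains ATF4 and is strongly induced by it in stressed cells. Here it was too low to be tested, between 0.993 and 19.8 normalised counts per library. Reads worked out from the table averaged 6.7 to 8.4 per library in each group, with the libraries kept out of count tests included. Group means lay between 7.19 ± 3.78 in WT lithium (SD, n = 8) and 9.32 ± 3.84 in WT fluoxetine (SD, n = 10). With no filter on low counts, lithium against vehicle gave -0.26 in WT (SE 0.326) and -0.02 in HT (SE 0.308), and fluoxetine 0.17 and 0.09, with limma adjusted p of 0.772 or more. A difference of the size seen for Atf4 was not detectable for Trib3 at this depth.

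Sesn2 (ENSMUSG00000028893, chromosome 4, 132492032 to 132510501) encodes a stress-inducible leucine sensor that restrains the growth kinase complex mTORC1. In WT its lowest, median and highest counts were 343, 377 and 423 with vehicle, 333, 344 and 387 with fluoxetine, and 374, 434 and 510 with lithium. In HT they were 310, 385 and 407 with vehicle, 295, 348 and 390 with fluoxetine, and 358, 405 and 490 with lithium. In both genotypes lithium was high and fluoxetine low, with the drugs overlapping only at their edges in WT and both drugs overlapping vehicle. Sesn2 was higher with lithium than with fluoxetine by 0.31 in WT (SE 0.0557, a fold of 1.24, limma adjusted p = 0.00049) and by 0.26 in HT (SE 0.0525, a fold of 1.20, limma adjusted p = 0.000811). The WT difference was 0.29 in females and 0.33 in males, and the HT difference 0.13 and 0.39. Without the 10 libraries poor in olfactory bulb RNA the HT difference was 0.21 (adjusted p = 0.0605).

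Against vehicle Sesn2 rose by 0.19 with lithium in WT (SE 0.0557, adjusted p = 0.0448), from 382 ± 26.3 (SD, n = 10) to 437 ± 46.0 (SD, n = 8). That call was lost in 11 of the 18 fits that left out 1 library (adjusted p up to 0.205, without WT lithium female 4), all but those without WT lithium female 1, female 2 or male 3 or WT vehicle female 1, female 4, male 1 or male 2. Without the 10 libraries poor in olfactory bulb RNA it was 0.17 (adjusted p = 0.162), and the fit on only the WT vehicle and WT lithium libraries gave an adjusted p of 0.168. In HT the difference of lithium from vehicle was 0.14 (95% confidence interval 0.04 to 0.25, adjusted p = 0.0602). With fluoxetine it was -0.12 in WT (adjusted p = 0.132) and -0.12 in HT (adjusted p = 0.115). The genotype difference in the lithium response of Sesn2 was -0.05 (95% confidence interval -0.20 to 0.11, adjusted p = 0.815).

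Chac1 (ENSMUSG00000027313, chromosome 2, 119351229 to 119354381) encodes an enzyme that breaks down glutathione, and Asns (ENSMUSG00000029752, chromosome 6, 7675169 to 7693254) encodes asparagine synthetase. Both carry the CARE core shown above, and neither passed in any comparison. Chac1 averaged 150 ± 14.9 in HT fluoxetine (SD, n = 10) to 164 ± 27.7 in WT lithium (SD, n = 8), and its drug differences lay between -0.10 and 0.07. Its 95% confidence interval for lithium against vehicle was -0.10 to 0.24 in WT and -0.23 to 0.09 in HT. Asns averaged 2089 ± 241 in WT fluoxetine to 2326 ± 144 in WT vehicle (SD, n = 10 each). Its difference of fluoxetine from vehicle in WT, -0.16 (95% confidence interval -0.28 to -0.05, limma adjusted p = 0.0657), missed the threshold, and after quantile normalisation it was -0.17 (adjusted p = 0.0406), where 3.73% of all genes fell. For lithium against vehicle Asns gave -0.09 in WT (adjusted p = 0.501) and -0.06 in HT (adjusted p = 0.535), so this target did not rise beside Atf4.

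Psat1 (ENSMUSG00000024640, chromosome 19, 15904678 to 15947337) encodes phosphoserine aminotransferase, an enzyme of serine synthesis. In HT its lowest, median and highest counts were 2422, 2535 and 2886 with vehicle, 2455, 2807 and 3067 with fluoxetine, and 2343, 2494 and 2577 with lithium. Most fluoxetine libraries lay above all lithium libraries, though the ranges overlapped. Psat1 was lower with lithium than with fluoxetine in HT by a log2 difference of -0.18 (SE 0.0416, a fold of 0.885, limma adjusted p = 0.00487), opposite in sign to Atf4, Sesn2, Ppp1r15a and Ddit3 in the same comparison. Without the 10 libraries poor in olfactory bulb RNA it was -0.17 (adjusted p = 0.0598). In WT the same comparison gave 0.09 (adjusted p = 0.223), from 2449 ± 122 with fluoxetine (SD, n = 10) and 2613 ± 228 with lithium (SD, n = 8).

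Some glial markers were lower in the drug comparison in which Psat1 passed, where 3.27% of all genes were lower. Of the oligodendrocyte markers 6 of 10 were lower with lithium than with fluoxetine in HT, with summed levels of 80400 to 120000 against 83100 to 200000. Of the astrocyte markers 2 of 10 were lower, with 136000 to 154000 against 125000 to 165000, and of the microglia markers 3 of 10, with 10200 to 11100 against 10300 to 13300. Differences above 0 were held by 4 of the 10 astrocyte markers, 2 of the 10 microglia markers and 0 of the 10 oligodendrocyte markers. No marker of these lists was at 0 in any library, and their part in the Psat1 result was not tested. The genes most like Psat1 over the 58 libraries were Prdx6 (r = 0.75), S100b (0.74) and Car2 (0.70).

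The genotype comparisons ask what heterozygosity for Kmt5b does to these genes. Under vehicle none of the 9 passed by limma, edgeR or DESeq2, by which 0.048%, 0.006% and 0.0455% of all genes did, and 0 had an unadjusted p under 0.05 by limma, against 12.2% of all genes. Under lithium none passed either by these 3 tools, where 0.06%, 0.012% and 0.156% of all genes did, and again 0 had an unadjusted p under 0.05, against 10.1% of all genes. The differences of the 9 genes lay between -0.08 (Asns) and 0.11 (Atf5) under vehicle and between -0.17 (Atf5) and 0.08 (Ppp1r15a) under lithium. Under fluoxetine 1 of 9 was higher in libraries labelled HT, where 0.384% of all genes were: Psat1, by 0.19 (SE 0.0416, a fold of 1.14, limma adjusted p = 0.0249), from 2257, 2445 and 2706 (lowest, median, highest) in WT to 2455, 2807 and 3067 in HT. The HT range was shifted upward and overlapped that of WT. That call was lost without the 10 libraries poor in olfactory bulb RNA (0.16, adjusted p = 0.193), when adjusted for the exon length slope (0.15, adjusted p = 0.0785), in the fit on only the compared groups (adjusted p = 0.0865), and without HT fluoxetine female 4, female 5 or male 1 or WT fluoxetine female 2, male 4 or male 5 (adjusted p 0.0512 to 0.0782).

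None of the 9 genes passed as differing between HT and WT in its response to fluoxetine, where 0.042% of all genes did, or to lithium, where 0% did. At an unadjusted p under 0.05 there were 2 of 9 for fluoxetine and 1 of 9 for lithium, against 11.1% and 13.9% of all genes, and by edgeR and by DESeq2 0 of 9 passed for both (for fluoxetine 0.03% and 0.102% of all genes did). For lithium no gene in the whole table passed by any of these tools, and 2320 of the 16669 had an unadjusted p under 0.05. Psat1 gave 0.18 for fluoxetine (SE 0.0588, adjusted p = 0.226), and for lithium Atf4 gave -0.11 (adjusted p = 0.435) and Ddit3 -0.17 (adjusted p = 0.401). Between males and females none of the 9 passed by limma, edgeR or DESeq2, while 0.132%, 0.102% and 0.174% of all genes did. At an unadjusted p under 0.05 by limma there were 2 of 9, against 8.25% of all genes. Atf4 was nearest, lower in males by a log2 difference of -0.07 (adjusted p = 0.352).

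For fluoxetine against vehicle, edgeR and DESeq2 also called none of the 9 genes in either genotype, while they called 6.68% and 7.99% of all genes in WT and 4.9% and 6.02% in HT. At an unadjusted p under 0.05 by limma there were 6 of 9 in WT and 3 of 9 in HT, against 24.5% and 27.9% of all genes. The median log2 difference of the 9 genes was -0.0935 in WT and -0.103 in HT, against -0.000913 and -0.00316 for all genes tested. In WT 6 of the 9 were below 0 and in HT 8 of the 9. The median for lithium against vehicle was 0.0653 in WT and 0.0484 in HT, against -0.0013 and -0.0015 for all genes. These medians describe small differences, most of which did not pass on their own.

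Libraries of the same genotype, treatment and sex still differed from each other, and some of the genes differed together. Over 58 libraries, with the mean of each group taken off, 29 of the 36 pairs of the 9 genes had a positive correlation (median r 0.23, from -0.34 to 0.54), and 5 pairs passed, all of them positive, in a permutation test of 100000 resamples within groups adjusted over the 36 pairs on Pearson's r. Pairs drawn from all genes tested were not put through this test. The counts therefore have no background share beside them and do not show a trait of these genes. Atf4 correlated with Ppp1r15a (r = 0.54, Spearman's rho = 0.50, permutation p = 0.0002 and 0.00047, adjusted p = 0.0036 and 0.00564). It also correlated with Ddit3 (r = 0.53, rho = 0.52, permutation p = 0.00049 and 0.00026, adjusted p = 0.00588 and 0.00468). Atf5 correlated with Sesn2 (r = 0.51, rho = 0.62, permutation p = 0.00014 and 2e-05, adjusted p = 0.0036 and 0.00072). Without the 2 libraries farthest from the median of the first gene, r was 0.49, 0.45 and 0.49 for these 3 pairs. Within the 48 libraries rich in olfactory bulb RNA r was 0.51, 0.58 and 0.48, and within the 10 poor in it 0.66, 0.34 and 0.81. These pairs were thus positive in both sets of libraries.

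The remaining pairs that passed on r were Sesn2 with Ppp1r15a (r = 0.43, adjusted permutation p = 0.0389) and Asns with Chac1 (r = 0.37, adjusted permutation p = 0.0389), the CARE-bearing pair. Their rho of 0.35 and 0.37 did not pass (adjusted permutation p = 0.0973 and 0.0547). Conversely, Atf5 with Ddit3 passed on rho (0.42, adjusted permutation p = 0.0388) and not on r (0.40, adjusted permutation p = 0.0531). For Sesn2 with Ppp1r15a and Asns with Chac1, without the 2 farthest libraries r was 0.33 and 0.39. Within the 10 libraries poor in olfactory bulb RNA r was 0.01 and -0.25, against 0.51 and 0.39 within the other 48. An r over 10 libraries is imprecise, and the difference between the sets was not tested. The same RNA, depth and dissection stand behind both genes of every pair.

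Over all 58 libraries with group differences left in, the tested genes most like Atf4 were Phb (r = 0.76), Jmjd6 (0.75) and Ptpn1 (0.74). Those most like Ddit3 were Atf4 itself (0.68), Cnot9 (0.68) and Banp (0.67), with little between them. Atf4 encodes the transcription factor above Ddit3 in the pathway, and the r of the pair contains the drug differences of both genes. Those most like Sesn2 were Atp8b2 (0.72), Neu1 (0.71) and 2410131K14Rik (0.71). These likenesses are given as a description.

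The rest of the pathway was read from lists of its parts. Of all genes tested, 3.98% rose and 3.41% fell with fluoxetine in WT and 6.84% and 5.96% in HT, while 1.95% rose with lithium in WT and 7.46% rose and 6.61% fell in HT. Among 18 genes of the eIF2 kinases, eIF2, eIF2B and their partners, 1 rose and 1 fell with fluoxetine in WT, 1 and 2 in HT, 1 and 0 with lithium in WT and 1 and 1 in HT, near those shares in most of these comparisons. The gene that rose was Dnajc3 each time, which encodes a co-chaperone of the endoplasmic reticulum that inhibits eIF2 kinases. It rose by 0.36 (WT, limma adjusted p = 7.83e-07) and 0.24 (HT) with fluoxetine and by 0.29 (WT) and 0.24 (HT) with lithium. Those that fell were subunits of the exchange factor eIF2B, Eif2b3 (-0.26) with fluoxetine in WT, Eif2b2 (-0.11) and Eif2b4 (-0.14) with fluoxetine in HT and Eif2b4 (-0.12) with lithium in HT.

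Of 18 amino acid synthesis genes, 1 rose with fluoxetine in WT, 1 rose and 1 fell in HT, 1 rose with lithium in WT, and 2 rose and 2 fell with lithium in HT, again near the shares of all genes in most comparisons. Gpt2, a mitochondrial alanine transaminase, rose with lithium in WT by 0.38 (limma adjusted p = 1.82e-05) and in HT by 0.27 (adjusted p = 0.000315), and with fluoxetine in WT by 0.22. With fluoxetine in HT Glul, glutamine synthetase, rose by 0.14 and Aldh18a1, an enzyme of proline synthesis, fell by 0.13. Phgdh, the enzyme of serine synthesis ahead of Psat1, fell with lithium in HT by 0.24 (adjusted p = 0.00156). Of 12 amino acid transporters tested, 1 rose with lithium in WT, Slc38a2 (0.22), 2 fell with lithium in HT, Slc38a3 (-0.26) and Slc1a4 (-0.11), and none passed with fluoxetine. Of 21 genes of cytosolic tRNA synthetases and tRNA export, 2 fell with fluoxetine in each genotype, Aars in both (-0.11 in WT and -0.14 in HT) beside Lars in WT (-0.10) and Sars in HT (-0.12), where 3.41% and 5.96% of all genes fell. With lithium 1 of these rose in WT, Cars (0.15), while 1 rose and 6 fell in HT (7.46% and 6.61% of all genes did), among them Yars (-0.10), Vars (-0.13) and Aars (-0.10). These lists hold many genes that ATF4 is known to induce, and in HT they moved in both directions. For the synthetases in HT the fluoxetine count was 8 fallen when adjusted for the olfactory bulb level and 4 without the 10 libraries poor in it, and the lithium count was 2 fallen and 1 risen when adjusted for the exon length slope.

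**Figure D4:**
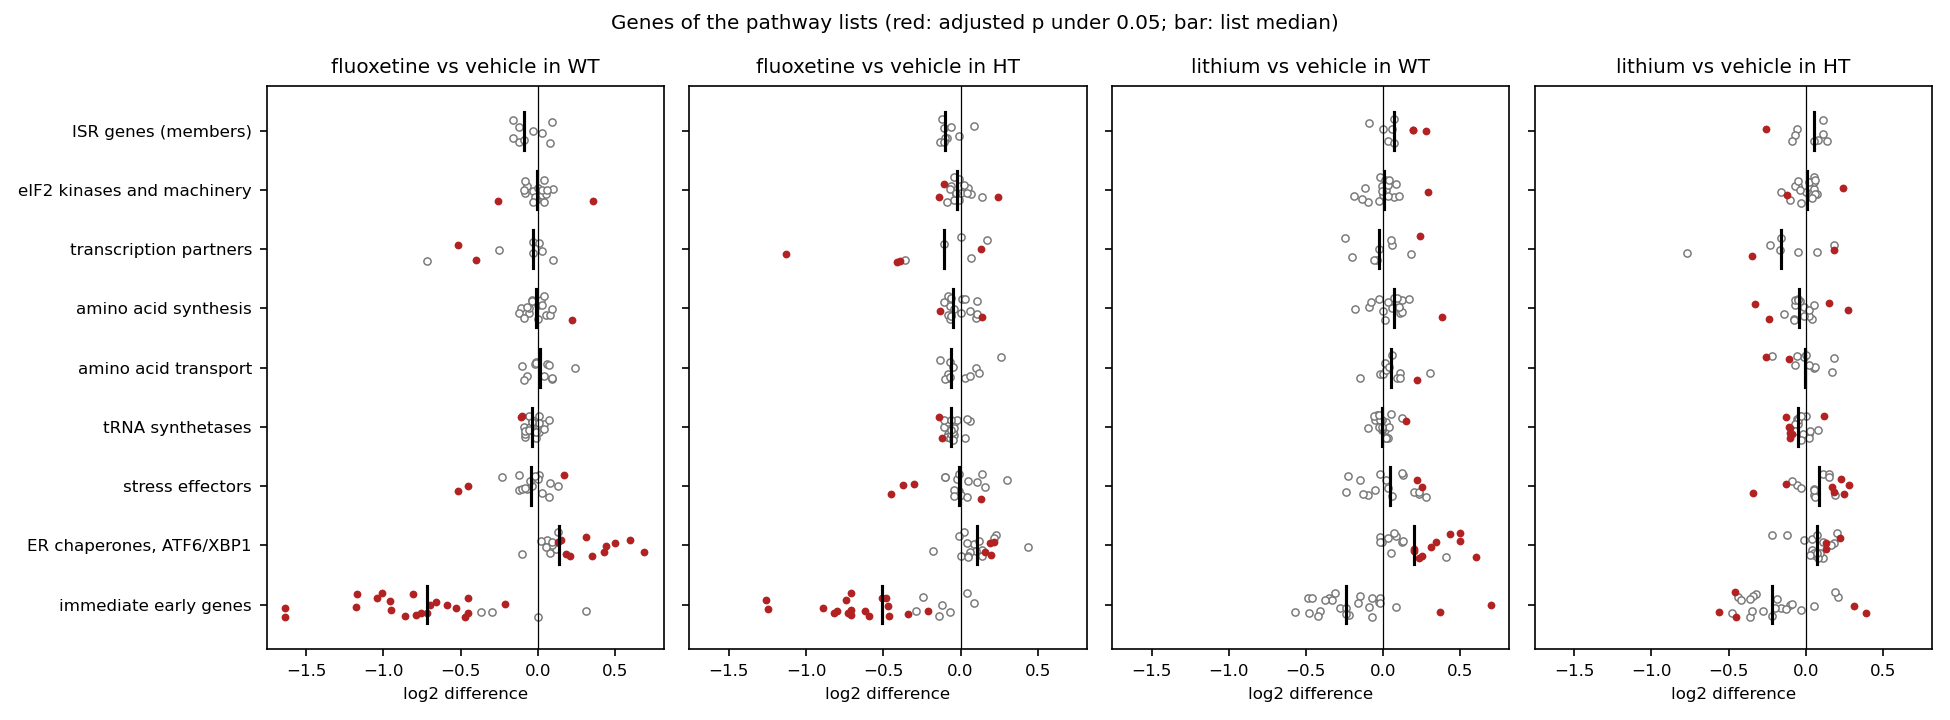
Difference in log2(normalised count + 1) of each tested gene of 9 lists (rows) in 4 drug comparisons (panels), with filled red points for genes at an adjusted p under 0.05, open points for the others and a bar at the list median. With fluoxetine most endoplasmic reticulum chaperones lie above 0 (median 0.14 in WT) and most immediate early genes below 0 (median -0.72 in WT), while the 9 genes of the stress response have a median of -0.0935 in WT.

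A list made of partners of ATF4 in transcription, 9 tested, held genes with larger differences. It also holds Ddit4, which is not a transcription factor. With fluoxetine Cebpb, which encodes a C/EBP factor, fell by 0.52 in WT (limma adjusted p = 0.00108) and by 0.41 in HT, and Ddit4, an inhibitor of mTORC1, fell by 0.40 and 0.39. Atf3 fell with fluoxetine in HT by 1.13 (adjusted p = 0.00601). In HT Cebpg, another C/EBP partner, rose by 0.13 with fluoxetine and by 0.18 with lithium. With lithium Cebpb fell in HT by 0.35, and in WT Jdp2 rose by 0.24. In all, 0 rose and 2 fell with fluoxetine in WT, 1 and 3 in HT, 1 and 0 with lithium in WT and 1 and 1 in HT, Ddit4 included. Of all genes 3.98% rose and 3.41% fell, 6.84% and 5.96%, 1.95% rose, and 7.46% and 6.61%, in that order.

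Of 18 stress effector genes, 1 rose and 2 fell with fluoxetine in WT, 1 and 3 in HT, 2 and 0 with lithium in WT and 5 and 2 in HT. Of all genes 3.98% rose and 3.41% fell, 6.84% and 5.96%, 1.95% rose, and 7.46% and 6.61%, in the same order, so 1 of 18 rising with fluoxetine is near the background. With fluoxetine Trib1, a relative of Trib3, fell by 0.52 in WT and 0.37 in HT, and the cell death gene Bbc3 fell by 0.45 in both. Herpud1, a protein of endoplasmic reticulum degradation, rose in WT with both drugs, by 0.17 with fluoxetine (limma adjusted p = 0.0247) and by 0.22 with lithium. Trib2 rose with lithium by 0.25 in WT and 0.23 in HT. The sestrins related to Sesn2 rose with lithium in HT, Sesn3 by 0.25 (adjusted p = 0.000756) and Sesn1 by 0.18 (adjusted p = 0.00263).

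ATF6 and XBP1 are the factors of the unfolded protein response that act in parallel to PERK, and many of their target genes rose in WT. Of 20, 11 rose with fluoxetine in WT (median 0.14, 3.98% of all genes rose) and 10 with lithium in WT (median 0.201, 1.95% of all genes rose), and none fell. In HT 4 rose with fluoxetine (median 0.11, 6.84% of all genes rose) and 3 with lithium (median 0.0786, 7.46% of all genes rose), and none fell. Differences above 0 were held by 19 with fluoxetine and 17 with lithium in WT, and by 17 with each drug in HT. In the test of a genotype difference in the response, none of the 20 passed for fluoxetine or for lithium. Of all genes 0.042% and 0% did, so a difference between HT and WT was not shown. Leading examples in WT were Manf (0.35), Hspa5 (0.44) and Creld2 (0.50) with fluoxetine and Hspa5 (0.50), Pdia4 (0.50) and Dnajb11 (0.20) with lithium, chaperones and secreted factors of the endoplasmic reticulum. Between the drugs none of the 20 passed in WT by limma (median -0.00645), whereas Atf4, Sesn2 and Ppp1r15a did. In HT 1 of the 20 passed (median -0.0361), where 3.27% of all genes were lower with lithium. That gene was Derl3, with a log2 difference of -0.57 for lithium against fluoxetine (limma adjusted p = 0.0244). Without the 10 libraries poor in olfactory bulb RNA the counts were 9 and 10 in WT and 5 and 1 in HT for fluoxetine and lithium, and without WT lithium female 4 the count for lithium in WT was again 10.

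Immediate early genes, which neurons switch on with activity, are the list that the activity-linked neighbours of Ppp1r15a come from. Of 25, 21 fell with fluoxetine in WT (median -0.72) and 18 in HT (median -0.506), where 3.41% and 5.96% of all genes fell. Examples in WT were Klf10 (-0.95), Dusp1 (-1.04) and Nr4a1 (-1.01), and in HT Nr4a3 (-0.80), Klf10 (-0.71) and Fosl2 (-0.62). With lithium Maff (0.70) and Klf4 (0.37) rose in WT, and 2 rose and 3 fell in HT, while the list median was below 0 in both (-0.24 and -0.216). Of all genes 1.95% rose with lithium in WT, and 7.46% rose and 6.61% fell in HT. Between the drugs 14 were higher with lithium in WT, against 2.55% of all genes, and 6 in HT, against 3.52%, in the same comparisons in which Ppp1r15a was higher. Without the 10 libraries poor in olfactory bulb RNA the fluoxetine counts were 20 and 17. Adjusted for the exon length slope, far fewer genes of the whole table passed with fluoxetine in WT. The counts of this list and of the ATF6 and XBP1 targets under that adjustment are not given here. Whether Ppp1r15a moved with these genes or with the stress response was not tested.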

How the data were processed

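The authors deposited 1 table of normalised gene counts for 58 TruSeq Stranded mRNA libraries, with 18088 genes. Salmon 0.11.2, R 3.6.0, DESeq2 1.19.11 and GRCm38 are named in the submitters' processing notes, and the annotation release is not given in the sources used here. Per the values of the deposited table, which serve as a signal per gene, each is a whole read count divided by a size factor: in 54 libraries 100% of the values became whole within 0.01 of a read, and 4 libraries (HT lithium male 3, HT vehicle female 2, male 1 and male 5) stepped near 1 and stayed out of count tests. The design had foreseen normalised values or raw counts, so its test for normalised values was used. Replicate pairs differed by 2.91 to 55.7 times the counting noise, so none was taken as a repeat.

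limma 3.58.1 in R 4.3.3 was fitted to log2(normalised count + 1) with a variance trend, over all 58 libraries and 12 groups of genotype, treatment and sex. Genes with a mean of at least 10 were tested (16669), and 1419 were left out. Contrasts were averaged over the sexes, and p-values were adjusted by the Benjamini-Hochberg method over all genes tested. Differences are on the log2(normalised count + 1) scale, which understates those of low genes. The fit was tested on simulated data. Alternatives were a replicate block, quantile normalisation, no variance trend, other filters and pseudocounts, only the compared groups, marker covariates and each library left out. Chosen after seeing the data were edgeR 4.0.16, DESeq2 1.42.0 and limma on 54 libraries, the exon length slope and leaving out the 10 libraries poor in olfactory bulb RNA.

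Named are all 10 genes, the 3 genes at most of each list that passed with the lowest p in a drug comparison, the 3 most correlated genes of each gene that passed, and Kmt5b. Outside this rule, Cebpg with fluoxetine and Trib2 with lithium in HT were named after their values were seen. Symbols were matched for 18077 genes. The genes and lists were chosen with earlier results of these data known.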

Additional observations from a re-analysis of the deposited data

Results flagged for a closer look

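In 5 of the 60 combinations of gene, genotype and treatment, 1 library stood apart from the rest of its group by Dixon's test, and chance marks about 1 in 20 such groups. Ddit3 was 432.9 normalised counts in HT lithium female 3, where the next library had 385.5. Trib3 was 18.76 in WT vehicle male 4, with the next at 10.76. Asns was 1878 in HT vehicle male 2, below the next at 2139. Chac1 was 196.1 in HT lithium male 3, with the next at 162.7. Ppp1r15a was 410.3 in HT lithium male 4, below the next at 475.4. HT lithium male 4 was the lowest of its group in 5 of the 10 genes.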

How the results depend on the processing

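Over 13 differences that passed, 195 alternative values kept their direction, with 172 on the same side of the threshold and 23 no longer past it. Of 248 values with 1 library left out, 47 were no longer past it, and none reversed. For fluoxetine against vehicle in WT, with 0 of 9 genes passing, quantile normalisation gave 1, the compared groups alone 1, and leaving out 1 library 0 to 1. In HT, with 0, adjustment for the olfactory bulb level gave 2, the exon length slope 1, and leaving out 1 library 0 to 1. For lithium against vehicle in WT, with 3, the compared groups alone gave 0 and leaving out 1 library 1 to 3, the lowest without WT lithium female 4. In HT, with 1, quantile normalisation gave 2, the olfactory bulb covariate 2, the exon length slope 2, the set without the 10 libraries poor in olfactory bulb RNA 0, limma on 54 libraries 0, and leaving out 1 library 0 to 2. For lithium against fluoxetine, leaving out 1 library gave 2 to 4 in WT, with 3, and 4 to 5 in HT, with 5, where the set without the 10 libraries gave 1. For HT against WT under fluoxetine, with 1, the compared groups alone, the set without the 10 libraries and the exon length slope each gave 0, and leaving out 1 library 0 to 1. The cause of these shifts was not tested, beyond the fewer libraries of some fits.

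With a replicate block, 0 of 9 genes passed with fluoxetine in WT and 0 in HT, 2 with lithium in WT, 1 in HT, 3 and 4 between the drugs in WT and HT, and 1 for HT against WT under fluoxetine. Same-numbered libraries did not deviate together (median r -0.01 over 309 pairs), and 8 of 58 libraries correlated best with one of their own number.

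Counts over all genes moved by more than 1.5 times. For fluoxetine in WT, 1232 genes became 678 without the 10 libraries and 273 with the slope. In HT, 2134 became 4307 with the olfactory bulb covariate, and on 54 libraries 791 by limma, 817 by edgeR and 1003 by DESeq2. For lithium in WT, 556 became 229 with the compared groups alone and 311 without the 10 libraries. In HT, 2345 became 1062, 1074 and 1257 by the 3 tools on 54 libraries. Between the drugs, 702 in WT became 1326 with the covariate and 228 with the compared groups alone, and 1132 in HT became 1904 and, without the 10 libraries, 609. HT against WT gave 0 to 29 genes under vehicle (8), 2 to 298 under fluoxetine (102) and 2 to 33 under lithium (10). The interaction with fluoxetine gave 0 to 17 (7), that with lithium up to 1 (0), and sex up to 43 (22). Trib3 alone among the 10 genes was too low to be tested, and the others had normalised counts of 122 or more in every library. How far depth limited those others was not tested.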
